A study of Homo sapiens with 9 samples.

Results

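Fibronectin, its integrin receptors and a small set of other adhesion and cell-shape genes were followed in clones of K562, an erythroleukaemia line that goes back to a human chronic myeloid leukaemia. The set holds 10 genes of the 63677 listed: FN1, ITGA4, ITGA5, ITGB1, ITGAV, EPCAM, MUC1, CDH1, CDH2 and VIM. They were found by symbol through their Ensembl gene IDs. ITGA4, ITGA5, ITGB1, ITGAV, CDH1, CDH2 and VIM were listed for what they do, whereas FN1, EPCAM and MUC1 were selected on their measured levels, as genes lower in the clones with mutant SRSF2. For FN1, EPCAM and MUC1 that difference is therefore described without a test.

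RNA-seq was done on 9 cultures: 4 clones with the P95H substitution in the splicing factor SRSF2 (P9, P15, P22 and P38), the parental line with wild-type SRSF2, and 4 CRISPR clones with wild-type SRSF2 (W19, W33, W36 and W42). The labels give bone marrow as the tissue source and name no treatment. They do not say whether the clones of a genotype came from separate editing events, and a clone contributed a single library, so the p-values rest on the spread among these clones. The study asked about splicing. The values used here are read counts per gene, which do not separate isoforms or the alleles of SRSF2, so they are no check of the genotype labels.

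Fibronectin is a large glycoprotein of the extracellular matrix that cells grip through integrins, heterodimers of an alpha and a beta subunit that span the membrane and connect to actin inside the cell. The alpha subunits ITGA4, ITGA5 and ITGAV each pair with ITGB1 to bind fibronectin, and K562 is known for adhering to it mainly through the ITGA5 and ITGB1 pair. Binding of progenitors to fibronectin helps to hold them in the bone marrow. EPCAM and MUC1 are surface glycoproteins best known from epithelia, CDH1 and CDH2 are the epithelial and neural cadherins of cell-cell junctions, and VIM is the intermediate filament protein of mesenchymal and many blood cells.

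For 4 genes the 250 bases before the most upstream transcription start listed are printed from the gene's strand. FN1 and MUC1 are shown because they were among the genes picked for lower levels in P95H clones, and ITGB1 and ITGAV because both were low in the same WT clone. The sequences are from RefSeq (GRCh38.p14). Capitals mark every match, on either strand, to the CRE (TGACGTCA), the GC box (GGGCGG), the CACCTG E-box or the CCAAT box (CCAAT). Neighbouring GC boxes may overlap each other.
FN1: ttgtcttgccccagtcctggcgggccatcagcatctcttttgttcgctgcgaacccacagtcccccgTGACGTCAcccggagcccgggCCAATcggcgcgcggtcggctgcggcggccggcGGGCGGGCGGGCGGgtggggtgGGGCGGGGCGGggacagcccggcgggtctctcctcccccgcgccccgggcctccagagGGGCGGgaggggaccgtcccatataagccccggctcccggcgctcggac
MUC1: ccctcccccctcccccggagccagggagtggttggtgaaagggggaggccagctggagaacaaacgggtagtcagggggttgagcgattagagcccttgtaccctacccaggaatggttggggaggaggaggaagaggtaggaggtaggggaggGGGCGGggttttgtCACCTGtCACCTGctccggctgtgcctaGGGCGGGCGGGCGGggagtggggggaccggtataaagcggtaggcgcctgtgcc
ITGB1: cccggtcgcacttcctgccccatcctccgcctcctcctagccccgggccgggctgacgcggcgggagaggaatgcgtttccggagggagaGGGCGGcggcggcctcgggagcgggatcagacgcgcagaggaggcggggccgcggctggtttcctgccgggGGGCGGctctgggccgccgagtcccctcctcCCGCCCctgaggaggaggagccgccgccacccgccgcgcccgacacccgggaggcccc
ITGAV: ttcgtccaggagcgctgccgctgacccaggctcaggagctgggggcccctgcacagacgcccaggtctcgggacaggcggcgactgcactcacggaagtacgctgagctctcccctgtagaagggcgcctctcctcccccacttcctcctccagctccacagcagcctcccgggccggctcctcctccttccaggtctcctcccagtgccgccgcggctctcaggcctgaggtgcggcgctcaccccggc
The windows lie at chr2:215436069-215436318 (minus strand) for FN1, chr1:155192916-155193165 (minus) for MUC1, chr10:32958231-32958480 (minus) for ITGB1 and chr2:186589806-186590055 (plus) for ITGAV. The FN1 window holds 1 CRE, whose first base lies 183 bases before the start, 1 CCAAT box and 6 GC boxes. The MUC1 window holds 2 E-boxes and 4 GC boxes, and the ITGB1 window holds 3 GC boxes. None of the 4 motifs was matched in the ITGAV window. Of 35116 human windows of this length, 1.65% held the CRE, 32% the CCAAT box, 42.6% the GC box and 17.5% the CACCTG E-box. A match describes letters and is no evidence of binding.

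The libraries held 24546255 to 35477328 reads in genes, 43.3 to 44.2% of the reads listed. A floor of 3 counts came to 0.0846 to 0.122 CPM (read counts relative to library size), here without TMM factors. This limit covers counting error only. The CPM levels of genes include TMM factors. W33 and P22 stood apart from the clones of their genotype. edgeR's quasi-likelihood F test, with Benjamini-Hochberg adjustment over 18539 genes and a threshold of 0.05, called 2427 genes (13.1%) in W33 against the other WT clones and 61 (0.329%) in P22 against the other P95H clones, but at most 4 in any other clone. The defining genes of red cell precursors were present in all libraries, with 8 of 8 K562 and erythroid markers tested and a summed level of 2760 to 6530 CPM in P95H clones, 3690 CPM in the parental line and 3090 to 4660 CPM in WT clones. PTPRC, the leukocyte surface phosphatase CD45, was at 0.179 CPM in P22 and 23.2 CPM in W33, and at 68.5 to 192 CPM in the other libraries. The myeloid marker LYZ was highest among P95H clones in P22, at 32.1 CPM, and highest among WT clones in W33, at 19.7 CPM. The parental line was above both at 38.2 CPM, and P38 was above W33 at 24.4 CPM. CD14, CSF1R and MPO were at most 0.530 CPM in any library.

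Between P95H and WT clones edgeR tested 18173 genes and called none (0%), with 2130 genes at an unadjusted p under 0.05 and a smallest adjusted p of 0.128. DESeq2 called 261 genes and limma-voom 34. The median log2 difference of all genes tested was 0.014. Of the 10 adhesion genes, 7 passed the filter on low counts. The other 3 had at most 10 counts in any library.

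FN1 (ENSG00000115414, chromosome 2) was the adhesion gene furthest apart between the genotypes. It stood at 34.6, 66.6, 22.3 and 14.6 CPM in P9, P15, P22 and P38, at 8.48 CPM in the parental line, and at 243, 148, 78.4 and 107 CPM in W19, W33, W36 and W42. Every P95H clone lay below every WT clone, and P15 and W36 came closest. The means were 34.5 ± 22.9 CPM in P95H clones and 144 ± 71.9 CPM in WT clones (SD, n = 4 each), a ratio of 0.24 and a log2 difference of -2.05 (SE 0.49). Leaving out each clone in turn gave -2.59 to -1.69, and leaving out W33 and P22 together gave -1.89. Of all genes tested, 4.65% had all P95H clones below all WT clones and 3.94% had them above. FN1 was the only one of the 7 adhesion genes without overlap. This is the contrast for which it was picked, so its place there is no finding.

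**Figure D1:**
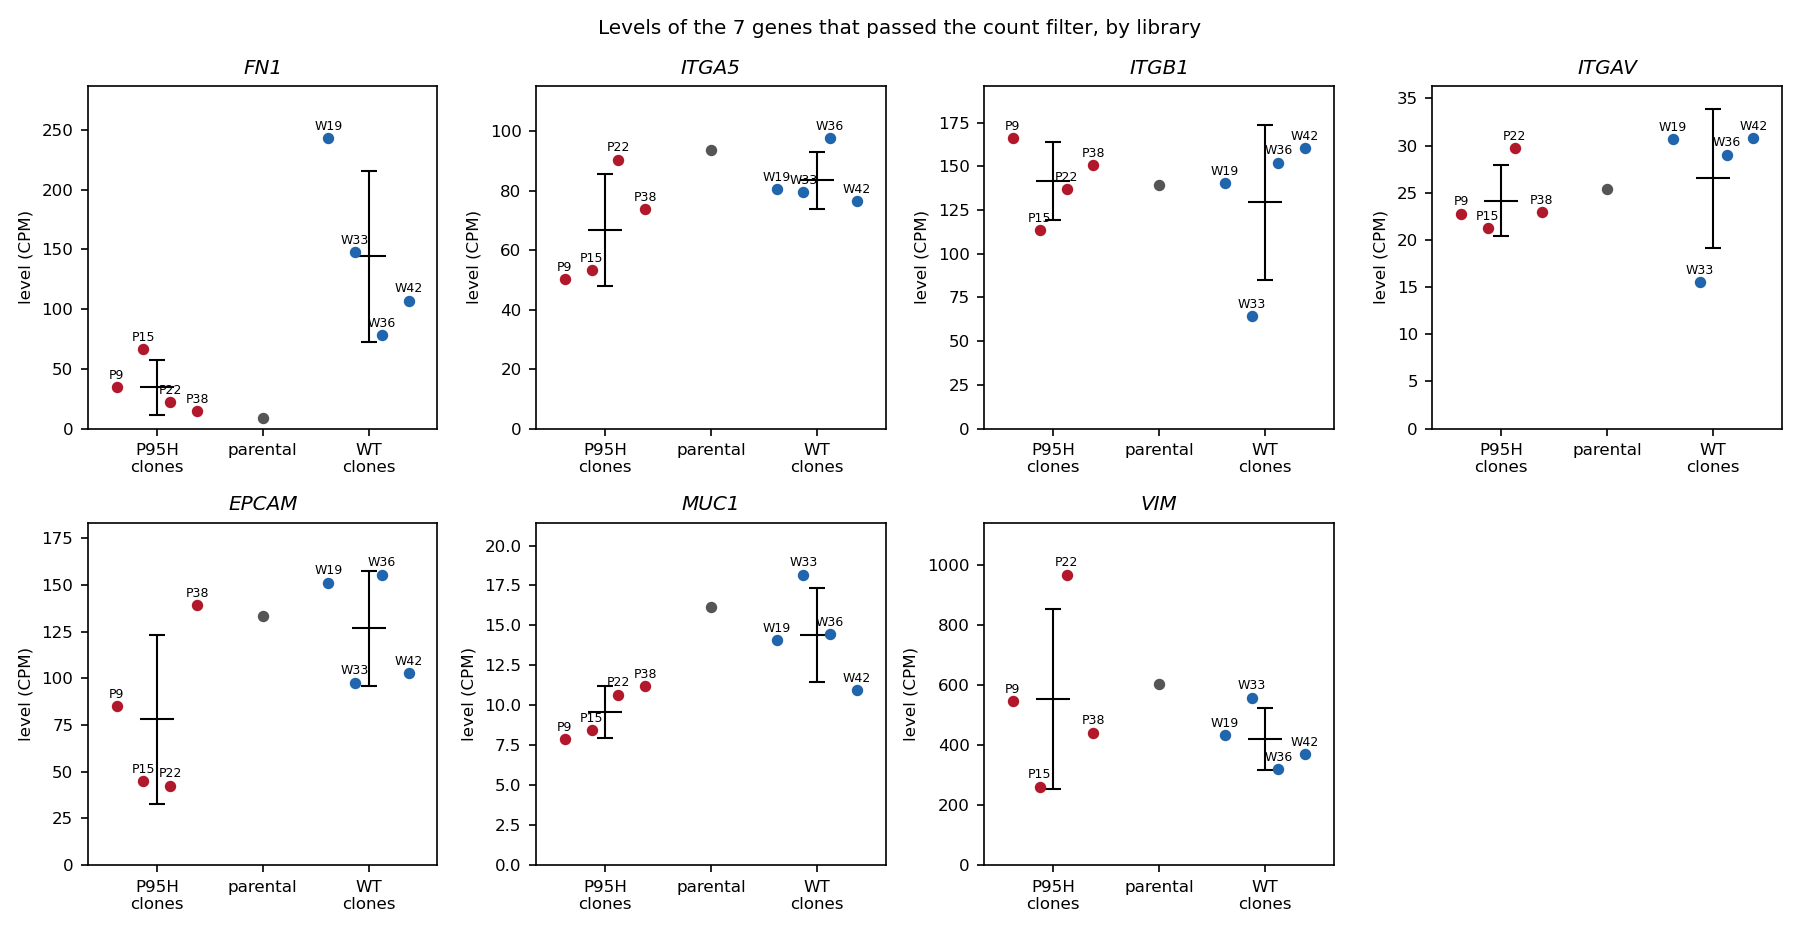
Levels (CPM, linear axes from 0) of the 7 adhesion genes that passed the count filter, with 1 point per library, in P95H clones, the parental line and WT clones; horizontal lines are means and bars 1 SD over 4 clones. FN1 alone has no overlap between P95H and WT clones, the parental line has the lowest FN1 level at 8.48 CPM, and W33 is the lowest library for ITGB1 and ITGAV.

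FN1 also varied strongly within each genotype. The highest clone had 4.56 times the level of the lowest among P95H clones and 3.10 times among WT clones, the widest spread of the 7 genes in WT clones as in P95H clones. Its level in the parental line, which carries wild-type SRSF2, was below that of all 8 clones. The WT mean was 17.0 times and the P95H mean 4.07 times the parental value. Against the WT clones the parental line differed by a log2 of -4.09 (SE 1.03), an estimate that assumes the lone library to vary like the clones. The WT levels in this contrast also entered the choice of FN1, EPCAM and MUC1, so for these genes the parental difference is likewise described without a test. Leaving out each WT clone in turn gave -4.29 to -3.71 for FN1. In the parental line ITGA5 differed from the WT clones by a log2 of 0.16 (SE 0.29) and ITGB1 by 0.11 (SE 0.4). ITGAV differed by -0.06 (SE 0.34) and VIM by 0.52 (SE 0.54). None of ITGA5, ITGB1, ITGAV and VIM, listed by function, reached an unadjusted p under 0.05 there or was called by DESeq2 or limma-voom.

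The genes next to FN1 did not share its pattern in size. The 20 nearest genes that averaged 5 CPM or more, 10 on each side, had a median log2 difference from the WT mean of -0.12 to 0.16 in the P95H clones and -0.01 in the parental line. Fibroblast markers, the usual companions of fibronectin in tissue, were almost absent. LUM and PDGFRA were at 0 in all 9 libraries, COL1A1, a chain of type I collagen, was the only one of 8 that passed the count filter, and the list summed to 1.29 to 7.07 CPM in P95H clones, 4.71 CPM in the parental line and 2.80 to 10.7 CPM in WT clones. Endothelial markers were at most 0.115 CPM in sum in any library. In bulk RNA a lower level in each cell and fewer expressing cells cannot be told apart.

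By the root mean square difference of log2 CPM, centred over the 9 libraries, 11470 protein-coding genes were ranked by likeness to FN1. The nearest were EGR1 (0.786), IL10RA (0.819), GABBR2 (0.848), FOS (0.873) and MPP2 (0.904), against a median of 1.54 over all genes. EGR1 and FOS encode transcription factors of the immediate early response. EGR1 stood at 88.0, 92.2, 30.7 and 72.6 CPM in P9, P15, P22 and P38, at 20.2 CPM in the parental line and at 163, 207, 85.6 and 135 CPM in W19, W33, W36 and W42. FOS was at 2.64, 3.34, 1.70 and 4.71 CPM in the P95H clones, at 1.35 CPM in the parental line and at 9.51, 11.5, 5.43 and 6.22 CPM in the WT clones, listed as for EGR1. The parental line was lowest for EGR1 and FOS, and also for IL10RA and GABBR2, whereas P22 was lowest for MPP2. Unlike FN1, EGR1 overlapped between the genotypes, with P9 and P15 above W36. The interleukin 10 receptor subunit IL10RA was at 28.3 CPM in P15 and 11.1 CPM in P9, both within or above its WT range of 7.31 to 14.9 CPM. Even the nearest gene thus lay far from FN1 in log2 terms, and the 9 libraries share their 3 groups, so likeness is a description.

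**Figure D2:**
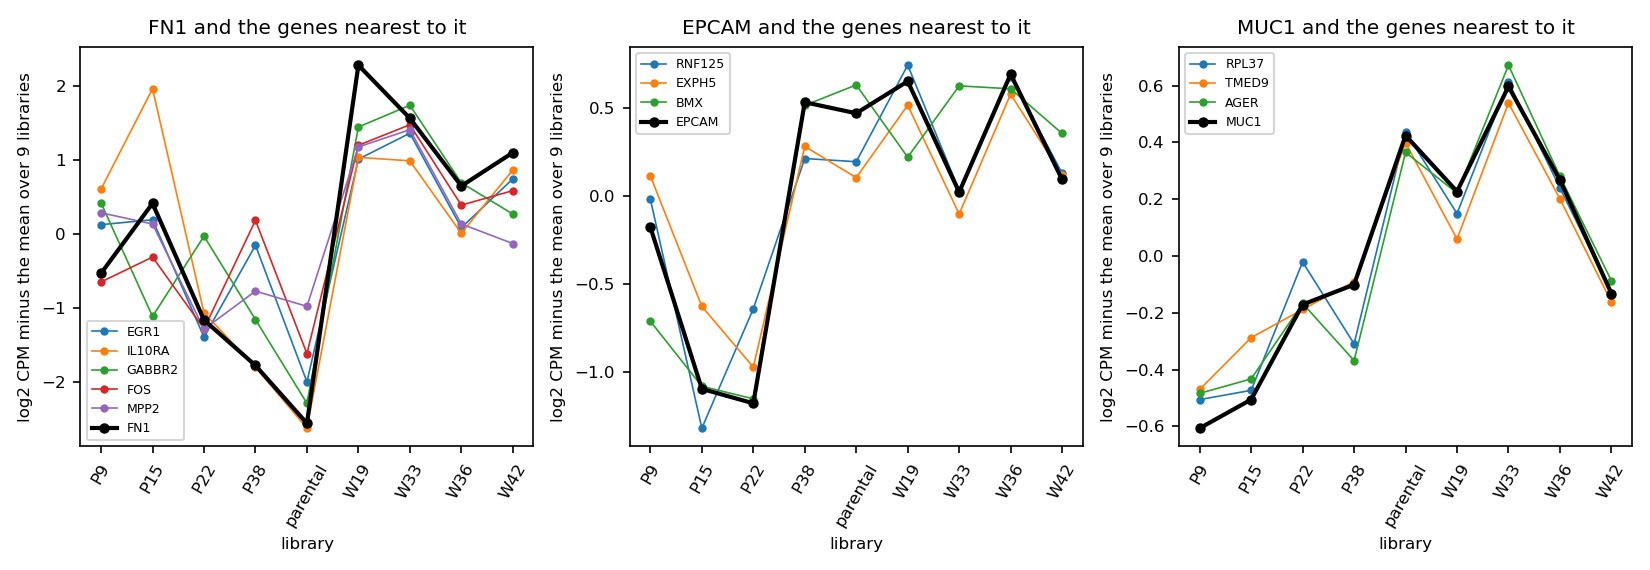
Log2 CPM minus its mean over the 9 libraries (y axis) by library (x axis, P95H clones, parental line, WT clones) for FN1, EPCAM and MUC1 (black) and the genes most like each (colours); lines only guide the eye. Around FN1 the nearest genes are EGR1, IL10RA, GABBR2, FOS and MPP2, with the parental line lowest for FN1 and all of these but MPP2.

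Among the fibronectin receptors, ITGA5, ITGB1 and ITGAV were expressed at clear levels in every library and ITGA4 was not. ITGA4 (ENSG00000115232, chromosome 2), the alpha subunit of the VLA-4 receptor of blood progenitors, had 1 count in all 9 libraries together, in W33. In the main fit none of the 3 expressed subunits differed between P95H and WT clones beyond the spread of the clones. The same holds for VIM. Of these 4 genes, listed by function and tested, edgeR called none, beside 0% of all genes. None of them reached an unadjusted p under 0.05 in that fit or was called by DESeq2 or limma-voom. Without W33 and P22 the differences of ITGA5 and ITGAV were larger, also without an edgeR call.

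ITGA5 (ENSG00000161638, chromosome 12), the alpha subunit of the main fibronectin receptor, was at 50.3, 53.3, 90.4 and 73.8 CPM in P9, P15, P22 and P38, at 93.6 CPM in the parental line, and at 80.6, 79.5, 97.7 and 76.5 CPM in W19, W33, W36 and W42. P9, P15 and P38 lay below all WT clones and P22 within their range. The means were 67.0 ± 18.8 CPM in P95H clones and 83.6 ± 9.56 CPM in WT clones (SD, n = 4 each), with a log2 difference of -0.31 (SE 0.19, edgeR adjusted p = 0.543). Leaving out each clone in turn gave -0.50, without P22, to -0.20, without P9. Leaving out W33 and P22 together gave -0.52 (SE 0.17, edgeR adjusted p = 0.266).

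ITGB1 (ENSG00000150093, chromosome 10), the beta subunit shared by these receptors, was at 166, 113, 137 and 151 CPM in P9, P15, P22 and P38, at 139 CPM in the parental line, and at 140.4, 64.3, 152 and 160.4 CPM in W19, W33, W36 and W42. All libraries but W33 lay within 113 to 166 CPM. The means were 142 ± 22.4 CPM in P95H clones and 129 ± 44.1 CPM in WT clones (SD, n = 4 each; log2 0.14, SE 0.26, edgeR adjusted p = 0.861). Leaving out each clone in turn gave -0.09, without W33, to 0.25, without W42, so the sign depended on W33.

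ITGAV (ENSG00000138448, chromosome 2), the alpha subunit of the vitronectin receptors, was at 22.8, 21.2, 29.7 and 23.0 CPM in P9, P15, P22 and P38, at 25.4 CPM in the parental line, and at 30.7, 15.5, 29.1 and 30.8 CPM in W19, W33, W36 and W42. The P95H clones lay within the WT range, which W33 widened downwards. The means were 24.2 ± 3.77 CPM in P95H clones and 26.5 ± 7.36 CPM in WT clones (SD, n = 4 each; log2 -0.13, SE 0.22, edgeR adjusted p = 0.846). Leaving out each clone in turn gave -0.32, without W33, to -0.06, without W19 or W42. Leaving out W33 and P22 together gave -0.44 (SE 0.09, edgeR adjusted p = 0.172). In the parental line the 3 receptor subunits were within 0.16 of the WT clones on the log2 scale, with an edgeR adjusted p of 1.0 for each.

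**Figure D3:**
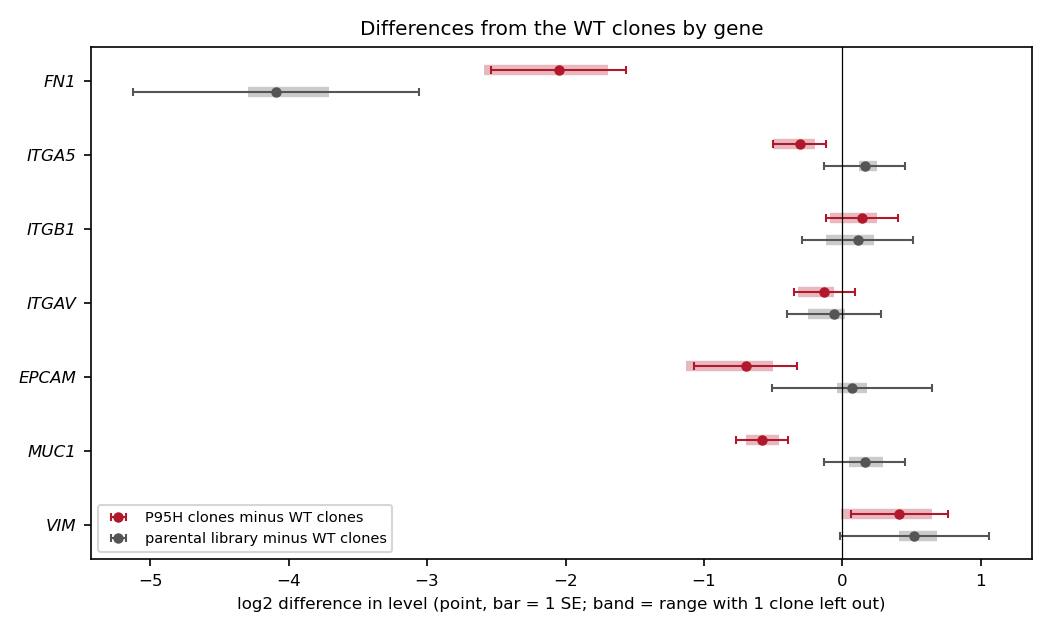
Log2 differences from the WT clones (x axis) for each of the 7 genes (y axis), with P95H clones in red above and the parental line in grey below; bars are 1 SE and pale bands the range with each clone left out in turn. FN1 lies at -2.05 in P95H clones and -4.09 in the parental line, whereas the integrin subunits lie between -0.31 and 0.16.

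Within the genotypes, W33 stood apart for ITGB1 and ITGAV. W33 is a single library, so its SEs and p-values assume that it varies like the other clones. ITGB1 was at 64.3 CPM in W33, against 151 ± 10.1 CPM in the other 3 WT clones (SD, n = 3), a log2 difference of -1.23 (SE 0.21, edgeR adjusted p = 0.0163). ITGAV was at 15.5 CPM in W33, against 30.2 ± 0.978 CPM in the other 3 (SD, n = 3; log2 -0.96, SE 0.21, edgeR adjusted p = 0.0265). Both calls were made under each of the 6 other scalings, filters and tools as well. ITGA5, in contrast, was at 79.5 CPM in W33 and 84.9 ± 11.2 CPM in the other 3 (log2 -0.10, edgeR adjusted p = 0.868). The ratio of ITGA5 to ITGB1 CPM, not corrected for length, was accordingly 1.24 in W33 and 0.302 to 0.672 in the other 8 libraries.

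These were 2 of the 7 adhesion genes tested in W33, a clone in which 13.1% of all genes were called, 1279 of them higher. In the other 7 comparisons of a clone with the rest of its genotype edgeR called 0 of the 7 adhesion genes. The share of all genes called was 0.329% in P22, 0.0216% in W42, 0.00539% in P15 and 0% in P9, P38, W19 and W36. At an unadjusted p under 0.05 were FN1 (log2 1.48) and VIM (-1.32) in P15, VIM (1.22) and ITGA5 (0.61) in P22 and EPCAM (1.28) in P38, with edgeR adjusted p-values of 0.568, 0.521, 0.31, 0.518 and 1.0 in that order. The 20 expressed genes nearest ITGB1 had a median log2 of -0.17 in W33 relative to the WT mean, and those nearest ITGAV -0.23. Those nearest ITGA5 had 0.24. Whether these shifts have a part in the low integrin levels was not tested.

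**Figure D4:**
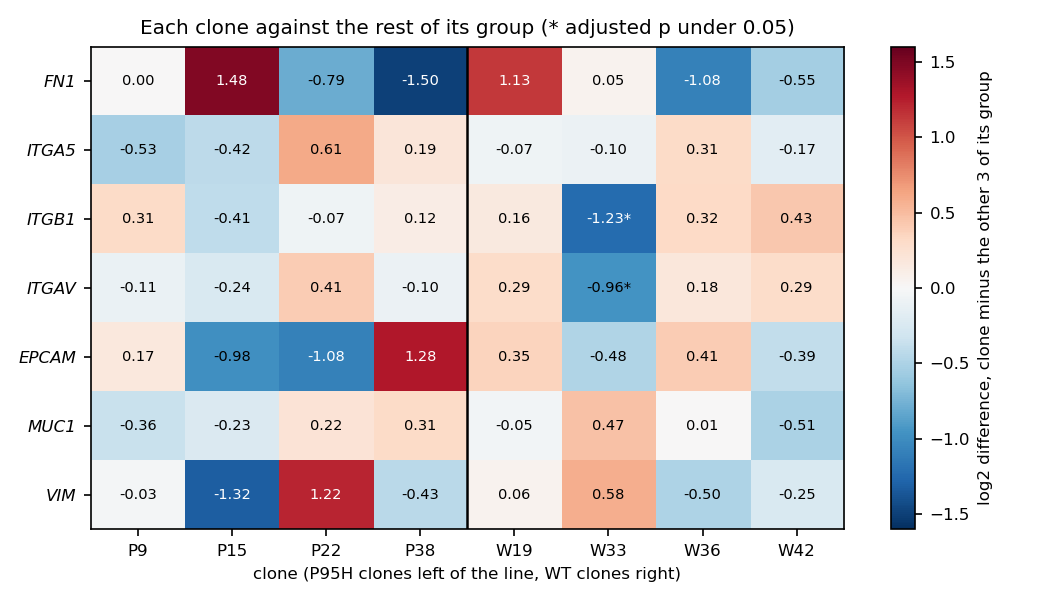
Log2 difference of each clone (columns) from the other 3 clones of its genotype, for each of the 7 genes (rows); blue is lower, red is higher, and an asterisk marks an edgeR adjusted p under 0.05. ITGB1 (-1.23) and ITGAV (-0.96) in W33 carry the asterisks.

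EPCAM (ENSG00000119888, chromosome 2), a homophilic adhesion molecule of epithelia and some progenitors, split the P95H clones. It was at 85.1, 45.0, 42.5 and 139 CPM in P9, P15, P22 and P38, at 133 CPM in the parental line, and at 151, 97.7, 155.5 and 103 CPM in W19, W33, W36 and W42. P9, P15 and P22 lay below all WT clones and P38 among them. The means were 78.0 ± 45.3 CPM in P95H clones and 127 ± 30.8 CPM in WT clones (SD, n = 4 each), a log2 difference of -0.70 (SE 0.37). Leaving out each clone in turn gave -1.13, without P38, to -0.50, without P22. The parental line differed from the WT clones by 0.07 (SE 0.58). The genes next to EPCAM had medians of -0.02 to 0.05 in the P95H clones.

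Of 8 epithelial markers, 3 passed the count filter. KRT5 was at 0 in all 9 libraries, and KRT14, KRT7 and GRHL2 had at most 3 counts in any. The list summed to 67.6 to 91.2 CPM in P95H clones, 95.5 CPM in the parental line and 70.5 to 133 CPM in WT clones. Nearly all of that sum was KRT19, a keratin of simple epithelia, at 78.4 ± 9.84 CPM in P95H clones and 94.2 ± 27.1 CPM in WT clones (SD, n = 4 each; log2 -0.25, edgeR adjusted p = 0.611). The tight junction gene CLDN4 was far lower in level, at 0.232 ± 0.110 CPM in P95H clones and 0.479 ± 0.0281 CPM in WT clones (log2 -1.01, edgeR adjusted p = 0.35). All P95H clones lay below all WT clones in CPM, as for 4.65% of all genes tested. That rested on few reads, with 5, 7, 13 and 4 counts in P9, P15, P22 and P38 and 13, 10, 15 and 14 in W19, W33, W36 and W42. The desmosome gene DSP went the other way, at 0.601 ± 0.555 CPM in P95H clones and 0.377 ± 0.176 CPM in WT clones (log2 0.69, edgeR adjusted p = 0.772). Whether these markers have a part in the EPCAM difference was not tested. The genes most like EPCAM over the 9 libraries were RNF125 (root mean square difference 0.248), EXPH5 (0.258) and BMX (0.322), against a median of 0.710. EXPH5, a partner of the small GTPase RAB27, was at 10.5, 6.30, 4.96 and 11.8 CPM in P9, P15, P22 and P38, at 10.5 CPM in the parental line and at 9.06 to 14.5 CPM in WT clones. As with EPCAM, P15 and P22 were its lowest libraries.

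MUC1 (ENSG00000185499, chromosome 1), a membrane mucin whose heavily glycosylated ectodomain limits cell contact, had the lowest mean over the clones of the 7 genes in CPM. It was at 7.89, 8.46, 10.7 and 11.2 CPM in P9, P15, P22 and P38, at 16.1 CPM in the parental line, and at 14.1, 18.2, 14.5 and 10.96 CPM in W19, W33, W36 and W42. The genotypes overlapped only through P38 and W42. The means were 9.56 ± 1.63 CPM in P95H clones and 14.4 ± 2.95 CPM in WT clones (SD, n = 4 each), a log2 difference of -0.58 (SE 0.19) that ran from -0.70 to -0.46 with each clone left out. The parental line differed from the WT clones by 0.16 (SE 0.29).

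The neighbours of MUC1 set W33 apart rather than the genotypes. The 20 expressed genes nearest MUC1 had median log2 differences from the WT mean of -0.24 to -0.12 in the P95H clones and 0.03 in the parental line. In the WT clones the medians were 0.34 in W33, -0.11 in W19, -0.04 in W36 and -0.18 in W42, which overlaps the P95H range. W33 was also the highest library for MUC1 itself. The part of the neighbours in the MUC1 difference was not tested. The genes most like MUC1 were the ribosomal protein gene RPL37 (0.096), TMED9 (0.106) and the receptor gene AGER (0.106), against a median of 0.450. TMED9 encodes a trafficking protein of the early secretory pathway. RPL37 was at 651, 666, 911 and 746 CPM in P9, P15, P22 and P38, at 1251 CPM in the parental line and at 1025, 1413, 1091 and 845 CPM in W19, W33, W36 and W42. Here, too, W33 and the parental line were highest and W42 was the lowest WT clone.

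The cadherins had few reads or none. CDH1 (ENSG00000039068, chromosome 16) had 6, 6, 10 and 2 counts in P9, P15, P22 and P38, 5 in the parental line, and 8, 8, 5 and 3 in W19, W33, W36 and W42, which is 0.0663 to 0.357 CPM. CDH2 (ENSG00000170558, chromosome 18) had 1 count in all, in W42. CDH1, CDH2 and ITGA4 did not pass the count filter and were not tested between the genotypes.

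VIM (ENSG00000026025, chromosome 10) was the most abundant of the 10 genes and the most variable in P95H clones of the tested genes listed by function. It was at 547, 262, 968 and 441 CPM in P9, P15, P22 and P38, at 603 CPM in the parental line, and at 433, 558, 320.2 and 369 CPM in W19, W33, W36 and W42. The P95H clones held both the highest and the lowest library. The means were 554 ± 299.9 CPM in P95H clones and 420.1 ± 103 CPM in WT clones (SD, n = 4 each; log2 0.41, SE 0.35, edgeR adjusted p = 0.658). Without P22 the difference was -0.01, and without P15 it was 0.65. In the parental line it was 0.52 (SE 0.54, edgeR adjusted p = 1.0). VIM shares 641 exon bases with its antisense gene VIM-AS1 and 619 with AL133415.1, and reads of such partners cannot be told apart, as the strand setting of the counting is not given. The overlaps of ITGA5, ITGB1, ITGAV and MUC1 with other genes came to at most 203 exon bases, and FN1, ITGA4 and EPCAM had none.

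Levels per kilobase of the longest protein-coding transcript allow the genes to be ordered. In P95H clones VIM averaged 297 CPM per kilobase, EPCAM 45.2, ITGB1 37.5, ITGA5 15.1, FN1 3.88, ITGAV 3.44 and MUC1 2.29. In the parental line the values were 323 for VIM, 77.3 for EPCAM, 36.8 for ITGB1, 21.1 for ITGA5, 3.87 for MUC1, 3.62 for ITGAV and 0.952 for FN1. In WT clones VIM averaged 225 CPM per kilobase, EPCAM 73.5, ITGB1 34.2, ITGA5 18.8, FN1 16.2, ITGAV 3.77 and MUC1 3.46. FN1 therefore ranked beside ITGA5 in WT clones, where their ranges of 8.80 to 27.3 for FN1 and 17.2 to 22 for ITGA5 overlapped, and beside ITGAV in P95H clones, where the ranges of 1.64 to 7.48 for FN1 and 3.02 to 4.23 for ITGAV overlapped. ITGAV and MUC1 overlapped in WT clones, and EPCAM and ITGB1 in P95H clones. ITGB1, at 17.0 to 42.4 in WT clones, also overlapped ITGA5 and FN1 there. MUC1, at 1.89 to 2.69 in P95H clones, also overlapped FN1 there. Over all exon bases of a gene instead, FN1 averaged 1.99 CPM per kilobase in P95H clones, below ITGAV at 2.94 and MUC1 at 2.03, so its place there depends on the length used. Its place in WT clones, at 8.32 below ITGA5 and above ITGAV at 3.23, did not.

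Around the 10 genes, 8 lists of other adhesion and cell-shape genes were described, with 183 genes of which 121 were tested. In P95H against WT clones edgeR called 0 of the 121, with 23 at an unadjusted p under 0.05, beside 0 and 2130 of all 18173 genes. limma-voom called 0 of them, beside 34 of all genes, and DESeq2 called 2, KRT8 and DES, beside 261. P95H clones lay below all WT clones for 1 of the 121 and above all of them for 6, beside 4.65% and 3.94% of all genes. The parental line against the WT clones gave 0 edgeR calls among 122 genes tested. GALNT2, ACTN4 and ITGAE share 1029, 868 and 427 exon bases with genes on the other strand, and SMAD4 shares 967 with AC091551.1 on its own strand, so their counts are less certain. Values for the lists are means with SDs over 4 clones each, and none of the differences passed in edgeR.

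The other integrin subunits had 14 of 22 members tested, 8 with a log2 difference above 0 and 6 below, and a median of 0.33 beside 0.014 over all genes. ITGA2B, the alpha subunit of the platelet fibrinogen receptor, averaged 24.2 ± 14.4 CPM in P95H clones and 11.2 ± 3.71 CPM in WT clones (log2 1.13, edgeR adjusted p = 0.34, and 0.62 without P22). It was at 45.1 CPM in P22 and 24.1 CPM in the parental line. Other megakaryocyte markers were low, with PF4 at 0 in all libraries and the whole list of 6 at 14.7 to 48.4 CPM in P95H clones, 25.4 CPM in the parental line and 10.9 to 18.2 CPM in WT clones, most of it ITGA2B. ITGA7, a laminin-binding subunit, averaged 1.77 ± 0.438 CPM in P95H clones and 3.20 ± 1.03 CPM in WT clones (log2 -0.84, edgeR adjusted p = 0.347). The E-cadherin receptor subunit ITGAE differed by -0.23.

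Among 18 of 37 extracellular matrix ligands tested, 12 were above 0 and 6 below, with a median of 0.09. The laminin chain LAMB1 averaged 188 ± 79.6 CPM in P95H clones and 158 ± 51.2 CPM in WT clones (log2 0.26), but was at 57.0 CPM in the parental line. The parental line differed from the WT clones by -1.48 (edgeR adjusted p = 1.0), the same direction as FN1. The laminin chain LAMA5 differed by -0.34 between P95H and WT clones, and by -0.19 without W33 and -0.14 without W33 and P22, and the basement membrane proteoglycan AGRN by 0.10. COL6A1, a chain of type VI collagen, averaged 0.665 ± 0.463 CPM in P95H clones and 2.37 ± 3.32 CPM in WT clones (log2 -1.80, edgeR adjusted p = 0.512). It was at 7.32 CPM in W33, and the difference was -0.13 without W33 and 0.28 without W33 and P22.

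Of the integrin adaptors and kinases, 27 of 33 were tested, 20 above 0 and 7 below, with a median of 0.12. The adaptor CRKL and the actin crosslinker ACTN4, the most abundant per kilobase, differed by 0.13 and -0.06. ZYX, a focal adhesion protein, averaged 55.4 ± 18.1 CPM in P95H clones and 90.0 ± 26.4 CPM in WT clones (log2 -0.69, edgeR adjusted p = 0.35, and -0.37 without W33 and P22). FERMT3, the kindlin that activates integrins in blood cells, was at 29.3, 3.95, 82.1 and 15.5 CPM in P9, P15, P22 and P38, at 47.6 CPM in the parental line, and at 6.52 to 16.4 CPM in WT clones. Its log2 difference of 1.77 (edgeR adjusted p = 0.409) was 0.75 without P22.

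Catenins and other cadherins had 7 of 14 tested, 6 above 0 and 1 below, with a median of 0.13. The catenins CTNNB1 and JUP, which tie cadherins to the cytoskeleton, stood at 183 ± 21.1 and 148 ± 44.6 CPM in P95H clones and at 168 ± 8.51 and 137 ± 26.6 CPM in WT clones. CTNNB1 differed by 0.13, and by 0.05 without P22. The cadherin gene CDH24 was at 14.3 ± 2.19 CPM in P95H clones and 16.9 ± 1.14 CPM in WT clones (log2 -0.23, edgeR adjusted p = 0.554, and -0.14 without P9). Partners and relatives of EPCAM and MUC1 had 18 of 23 tested, 11 above 0 and 7 below, with a median of 0.06. The tetraspanin CD81 and the glycosyltransferase GALNT2 differed by -0.16 and 0.06. FHL2, an adaptor of LIM domains, averaged 18.2 ± 4.43 CPM in P95H clones and 9.25 ± 4.87 CPM in WT clones (log2 0.99, edgeR adjusted p = 0.382). The galectin LGALS3 differed by 0.72, and by 0.16 without P22.

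Intermediate filaments and linkers had 12 of 17 tested, 5 above 0 and 7 below, with a median of -0.01. KRT8, a keratin of simple epithelia, was at 195, 340.3, 245 and 416 CPM in P9, P15, P22 and P38, at 451 CPM in the parental line, and at 485, 759, 517 and 446 CPM in W19, W33, W36 and W42. All P95H clones lay below all WT clones (log2 -0.87, SE 0.24, edgeR adjusted p = 0.318). Its partner KRT18 averaged 169 ± 41.6 CPM in P95H clones and 266 ± 79.1 CPM in WT clones (log2 -0.64, edgeR adjusted p = 0.347). KRT8 and KRT18 share 525 exon bases on opposite strands and have near-identical pseudogene copies, so their counts are uncertain. DES, the filament protein of muscle, was at 32.4, 6.82, 25.5 and 6.36 CPM in P9, P15, P22 and P38, at 12.4 CPM in the parental line, and at 0.692, 3.97, 1.501 and 3.46 CPM in W19, W33, W36 and W42. All P95H clones lay above all WT clones (log2 2.91, SE 0.68, edgeR adjusted p = 0.286), and so did the parental line.

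Factors of the epithelial-mesenchymal transition and linked splicing regulators had 10 of 18 tested, 8 above 0 and 2 below, with a median of 0.18. TCF4 averaged 26.8 ± 4.35 CPM in P95H clones and 18.9 ± 3.24 CPM in WT clones without overlap (log2 0.51, edgeR adjusted p = 0.338). ZEB2, a repressor of CDH1, averaged 44.3 ± 9.48 CPM in P95H clones and 31.1 ± 4.87 CPM in WT clones (log2 0.52, edgeR adjusted p = 0.347, and 0.31 without W33 and P22), with 1299 exon bases shared with ZEB2-AS1. RBFOX2 differed by 0.52 and TCF3 by less than 0.01. The TGF-beta pathway, whose ligands induce fibronectin in many cells, had 15 of 19 tested, 12 above 0 and 3 below, with a median of 0.21. The ligand TGFB1 and the receptor TGFBR1 differed by 0.05 and -0.06. The shared mediator SMAD4 averaged 37.5 ± 1.15 CPM in P95H clones and 31.1 ± 3.39 CPM in WT clones without overlap (log2 0.27, edgeR adjusted p = 0.401), and the inhibitor SMAD6 differed by 0.79 (edgeR adjusted p = 0.359).

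**Figure D5:**
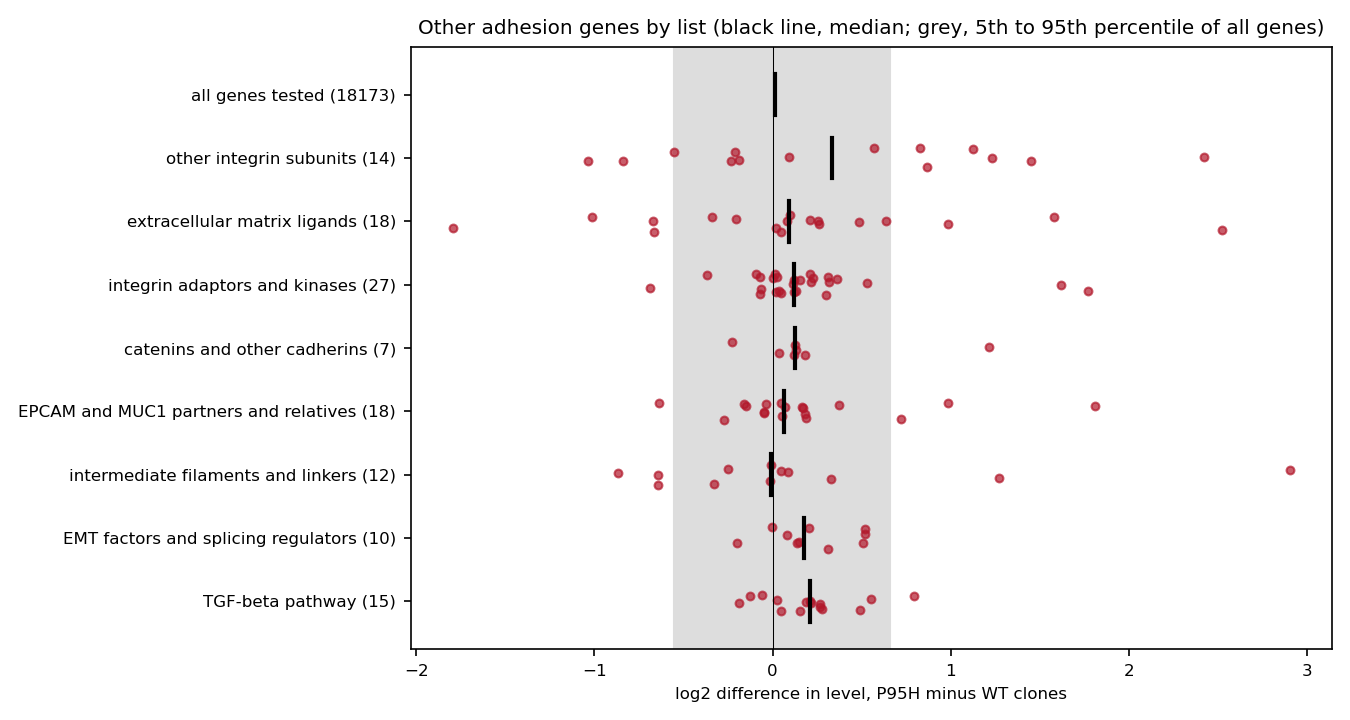
Log2 difference between P95H and WT clones (x axis) for each tested gene of the 8 lists (y axis, number of genes in brackets); black lines are list medians and the grey band spans the middle of all 18173 genes, from the 5th to the 95th percentile. List medians lie between -0.01 and 0.33, beside 0.014 for all genes, and none of the 121 genes passed in edgeR.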

How the data were processed

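Poly(A)-selected RNA of 9 K562 cultures was sequenced on a HiSeq2000 after TruSeq RNA preparation, per the labels' protocols. Deposited were raw counts of reads for each Ensembl gene. The submitters' processing notes name TopHat2 2.0.4, HTSeq 0.6.1p1, bcl2fastq and build GRCh37. The sources used here do not give alignment or strand settings. Between 43.3 and 44.2% of listed reads were assigned to genes, and the rows that name no gene were kept out.

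Symbols came from GENCODE 29 for 52526 of 63677 gene IDs. GENCODE 29 is on GRCh38, so it served only for symbols, exon lengths, overlaps and gene order. P95H and WT clones (4 each) were compared with edgeR 4.0.16 in R 4.3.3: filterByExpr, TMM scaling, robust quasi-likelihood F test and Benjamini-Hochberg adjustment, threshold 0.05. SEs were taken from the log2 difference and its F. The parental line and single clones were compared in fits of all 9 libraries. The procedure was also run on simulated counts with the same spread for every gene and clone. That run does not cover clones that stand apart, such as W33, and nothing is read from it here. CPM used TMM scaling, and log2 CPM a prior count of 2. Alternatives tried were scaling by RLE or upper quartile, no filter, at least 1 CPM in 4 libraries, DESeq2 1.42.0, limma-voom (limma 3.58.1) with quality weights, other sets of libraries and each clone left out. Single-clone comparisons without W33 and P22 among the rest were added after seeing the data.

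The genes and lists were chosen with earlier results of these data known. Of 185 list entries 183 matched a gene. Named from each list were the 2 genes highest per kilobase and the 2 with the smallest unadjusted p among those with a mean of at least 1 CPM.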

Additional observations from a re-analysis of the deposited data

Results flagged for a closer look

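ITGAV in W33 was at 15.5 CPM, far below the other WT clones at 29.1 to 30.8 CPM. Of 14 sets of 4 clones examined (7 genes in 2 genotypes), this was the only one whose lowest or highest clone lay so far from its nearest neighbour relative to the whole range. Chance alone gives about 1 such set in 20. ITGB1 was also lowest in W33, at 64.3 CPM, without meeting the same criterion.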

How the results depend on the processing

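Of 18173 genes, edgeR called 0 between P95H and WT clones, but 2 with no filter, 5 without W33 and P22, 0 to 1 with each clone left out, 34 in limma-voom and 261 in DESeq2. DESeq2's count was 2 among the list genes (KRT8 and DES) and 1 among the 7 adhesion genes, where the 1 was picked for this very difference and nothing is read from it. For the parental line against the WT clones the count was 0, but 5 with no filter and 4 in DESeq2, again with 1 adhesion gene, picked for its difference from the same WT clones. The single-clone calls, ITGB1 and ITGAV in W33, stayed at 2 under 6 other scalings, filters and tools. Leaving W33 and P22 out of the other single-clone comparisons, added after seeing the data, does not bear on these 2 calls and gave 0 further ones. The cause of these shifts was not tested. Between P95H and WT clones the sign turned for ITGB1 in limma-voom (-0.01), without W33 (-0.09; -0.09 to 0.25 with each clone left out) and without W33 and P22 (-0.08), for VIM without P22 (-0.01; -0.01 to 0.65) and for COL6A1 without W33 and P22 (0.28). For the parental line it turned for ITGB1 in limma-voom (-0.07) and without W33 (-0.12; -0.12 to 0.23), for ITGAV without W19 or W42 (0.02 each; -0.25 to 0.02) and against all 8 clones (0.00), and for EPCAM in limma-voom (-0.09), without W33 (-0.04; -0.04 to 0.18) and without W42 (-0.02). Other single-gene values kept their sign and side of the threshold, except for the DESeq2 calls above. No paired analysis was possible because the clone numbers are not shared between the groups. Depth limits ITGA4 and CDH2, with 1 count each in all, and CDH1, with 2 to 10 counts per library, and the lone parental library limits its comparison.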
